A study of Homo sapiens with 18 samples.

Results

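LIF, IL6 and their relatives form a family of cytokines that share one signalling chain, and 10 genes of this route were followed by RNA sequencing in MiaPaCa-2, an established human pancreatic cancer line. They are the ligand genes LIF, CLCF1, IL11 and IL6, the receptor genes LIFR, IL6R, OSMR and IL6ST, the transcription factor gene STAT3 and the inhibitor gene SOCS3. The genes were chosen by symbol, and all 10 were found among the 57445 genes of the count table. Of these, 9 passed the filter on low counts and IL6 did not. The study set cancer cells that had moved farthest along a nerve against cells that lagged behind, in 18 libraries that form 6 groups of 3. The parental line was grown in culture and not injected. Laggers were recovered after the first injection into the sciatic nerve. Leaders came from injections 1 to 4, called passages here, between which recovered leader cells were grown in culture and a part of them was injected again. All groups carry the genotype label WT and stem from 1 line, each leader passage descends from the one before it, and the labels do not give the host animal or its age. Nothing in the labels ties replicates to separate cultures or animals. The p-values therefore reflect only how much these libraries vary, and part of that variation may be technical.

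Cytokines of this family signal through the shared receptor chain gp130, which IL6ST encodes. LIF reaches gp130 together with the LIF receptor, IL6 and IL11 through binding chains of their own, and oncostatin M through the receptor encoded by OSMR. Kinases of the JAK family bound to these receptors phosphorylate STAT3, which then turns on target genes, among them SOCS3, whose protein blocks the receptor and its kinases. In pancreatic cancer LIF is known as a signal between tumour and stromal cells.

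Promoter sequence from RefSeq (build GRCh38.p14) was available for 8 of the 10 genes and was read over the 250 bases before each start. LIF and CLCF1 had no entry. Motifs were searched on both strands and are given with the share of all 27305 promoters that hold them in a window of that length. The STAT element TTCNNNGAA (6.78% of promoters) lay in the window of LIFR, the AP-1 element TGANTCA (6.6%) in that of IL11 and the NF-kB element GGANTTTCC (1.47%) in that of IL6. The cyclic AMP element TGACGTCA (1.77%) and the NR4A element AAAGGTCA (1.05%) were in none of the 8 windows. The windows of LIFR and IL11 are printed because these genes hold a match and changed in the tests below. Each runs 5′ to 3′ in the direction of the gene, with the match in capitals. The LIFR window (chr5:38595406-38595655, minus strand) lies within the gene spans of LIFR and its antisense gene LIFR-AS1 and holds no annotated exon, and its match starts 165 bases before the RefSeq start. The IL11 window (chr19:55370464-55370713, minus strand) overlaps no annotated gene, and its match starts 96 bases before the start. The SOCS3 window (chr17:78360926-78361175, minus strand) lies upstream of the annotated gene and does not reach its start at 78360077. The lack of a STAT match in that window therefore leaves the sequence next to the annotated start unread. The windows of IL6, IL6R, IL6ST, OSMR and STAT3 overlap annotated exons of their own genes. A match describes letters, not a bound factor.
LIFR: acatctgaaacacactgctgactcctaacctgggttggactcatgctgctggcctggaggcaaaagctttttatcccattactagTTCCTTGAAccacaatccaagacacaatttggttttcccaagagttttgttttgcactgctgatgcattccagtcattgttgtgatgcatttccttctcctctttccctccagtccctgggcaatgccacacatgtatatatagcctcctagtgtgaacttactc
IL11: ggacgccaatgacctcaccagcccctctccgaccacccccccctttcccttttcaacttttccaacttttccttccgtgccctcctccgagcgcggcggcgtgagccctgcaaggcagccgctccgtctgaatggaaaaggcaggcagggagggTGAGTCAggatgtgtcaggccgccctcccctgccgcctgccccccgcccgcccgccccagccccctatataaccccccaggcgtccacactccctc

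Levels below are CPM, the counts of a gene per 1000000 gene counts, after library sizes were adjusted with edgeR's TMM factors. Changes are log2 fold changes with a standard error (SE), and a change counts as called when the adjusted p over all 16187 tested genes was below 0.05. Libraries held 15113462 to 39373248 gene counts. Mitochondrially encoded genes took 0.472% to 0.873% of them in parental libraries and 1.95% to 8.57% in injected ones. The epithelial keratin gene KRT8 was abundant in all groups (2465 CPM in the parental line), whereas the epithelial adhesion genes EPCAM and CDH1 had 0 counts in all parental libraries. The summed level of 10 fibroblast markers was 119 to 254 CPM in parental libraries, 1274 to 2153 in the lagger group and 1009 to 2311, 739 to 1504, 549.8 to 1337 and 234 to 496 at leader passages 1, 2, 3 and 4. The collagen genes COL1A2 and COL3A1 made up most of that sum in every injected group, whereas COL1A1 was highest in the parental line, at 159.6 CPM in the parental line and 48.6, 17.9, 23.0, 15.7 and 6.61 in laggers and leader passages 1 to 4. FAP and DPT had at most 6 counts in any library, and DCN had a group mean of at most 9.40 CPM. The sum of 12 leukocyte markers was 10.8 to 35.1 CPM in passage 4 leaders, above every other library (1.79 to 10.7 CPM). It was carried there by ITGAM (2.24 CPM in the parental line, 20.9 at passage 4), with CD3D and CD3E at 0 in 17 of 18 libraries each. PTPRC went the other way, from 2.51 CPM at passage 3 to 0.675 at passage 4. CD68, CD14 and CSF1R averaged 0.105, 0.0518 and 0.0551 CPM at passage 4. The sum of 7 skeletal muscle markers was 2.22 to 3.71 CPM in parental libraries, 6.71 to 382 in laggers, 74.3 to 123 in passage 1 leaders and at most 13.6 in later leaders. It was carried by MB (0.983, 119 and 62.3 CPM in the first 3 of these groups) and TNNT3 (0.00829, 29.5 and 31.3 CPM). The myosin gene MYH1 had at most 1 count in a library. The sum of 10 Schwann cell markers was highest in parental libraries (234 to 270.2 CPM, mostly MBP), and S100B, a gene typical of these cells, had at most 3 counts in a library. The part of these markers in the results below was not tested, and in bulk RNA fewer cells of a type and less RNA per cell cannot be told apart.

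The ligand gene LIF was highest in passage 4 leaders. Its levels in replicates 1 to 3 were 55.8, 44.6 and 74.9 CPM in the parental line, 26.8, 28.6 and 40.5 in laggers and 36.9, 81.9 and 24.8 in passage 1 leaders. Passage 2 leaders held 39.6, 46.5 and 47.2 CPM, passage 3 leaders 63.2, 72.0 and 78.5 and passage 4 leaders 190.5, 122 and 132. Each passage 4 library lay above all other libraries and each lagger library below each parental one, while the remaining neighbours in the order of group means overlapped. LIF rose in passage 4 leaders against the parental line by 1.34 ± 0.34 SE, a fold of 2.53 (95% interval of the log2 value 0.62 to 2.06, edgeR adjusted p = 0.00853). Against passage 1 leaders the rise was 1.63 ± 0.34 (edgeR adjusted p = 0.00419), and 2.23 without passage 1 leader replicate 2 (edgeR adjusted p = 0.000184). The slope over the 4 leader passages was 0.56 ± 0.11 per passage (edgeR adjusted p = 0.00225). The leukocyte marker sum, carried by ITGAM, was also highest at passage 4 (10.8 to 35.1 CPM, against at most 10.7 elsewhere). PTPRC of the same list was lower at passage 4 (0.675 CPM) than at passage 3 (2.51 CPM). The part of these genes in the LIF level was not tested. In tests added after the values were seen, LIF in passage 3 leaders stood at 0.58 ± 0.34 against passage 1 leaders (edgeR adjusted p = 0.284). Passage 4 against passage 3 gave 1.05 ± 0.34 (edgeR adjusted p = 0.175), so that step was not called.

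In laggers LIF stood at -0.87 ± 0.34 against the parental line, on the edge of the threshold (edgeR adjusted p = 0.0522). It passed with RLE scaling (edgeR adjusted p = 0.0497), with no filter on low counts (edgeR adjusted p = 0.0129), without parental replicate 2 (edgeR adjusted p = 0.0462) and without lagger replicate 3 (edgeR adjusted p = 0.0426). In the other 8 of 12 alternatives it did not pass. Among these were DESeq2 (adjusted p = 0.0534) and the fit without parental replicate 3 (-0.66, edgeR adjusted p = 0.179). Passage 1 leaders were at -0.29 ± 0.34 (edgeR adjusted p = 0.507), and at -0.86 without their replicate 2 (edgeR adjusted p = 0.0192). LIF lies on chromosome 22 from 30240447 to 30246851 on the minus strand (GENCODE 29 on GRCh38, as for all gene positions here). The antisense gene LIF-AS1 overlaps it, with at most 128 counts in a library, and the library kit does not mark strand.

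**Figure D1:**
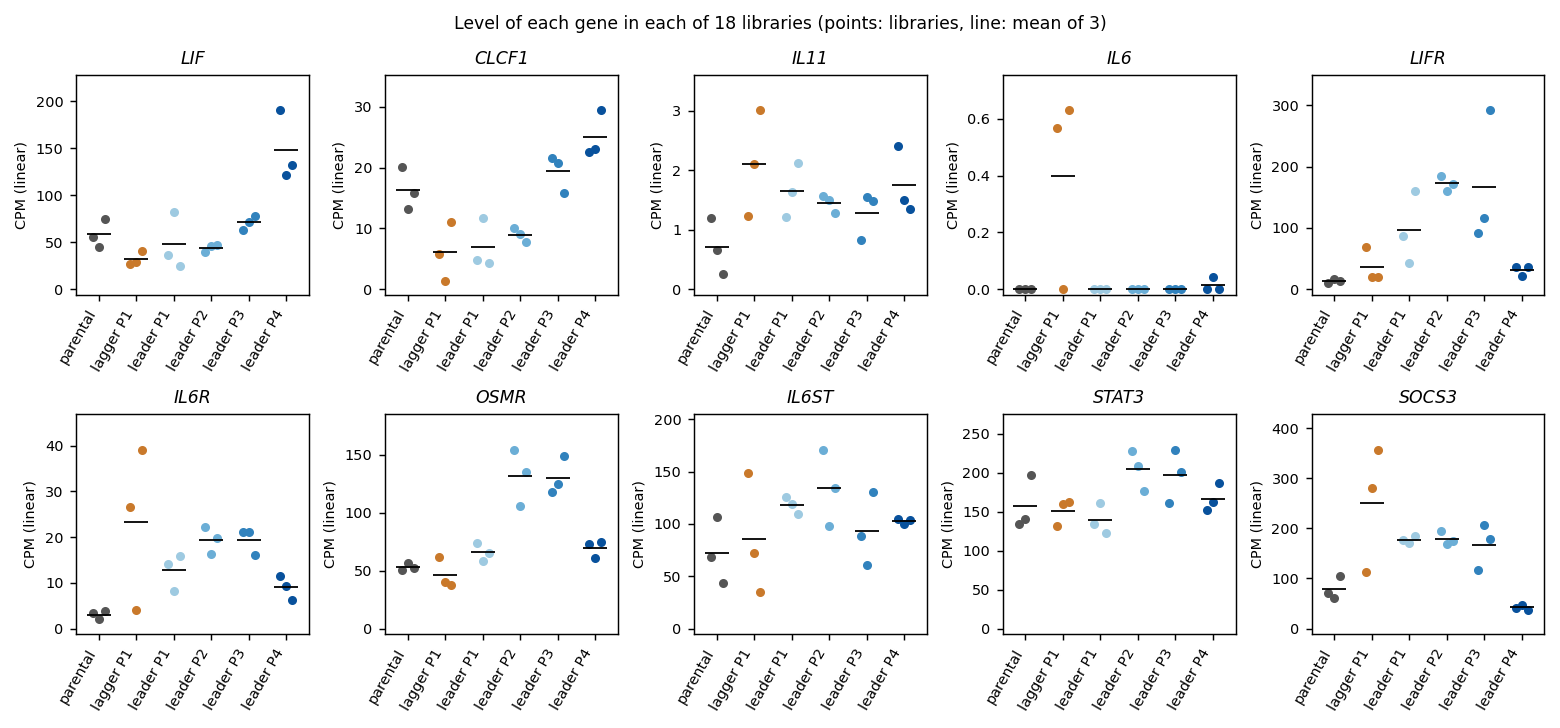
Level of each of the 10 genes in CPM (linear axis, own scale in each panel) in 18 libraries, with 3 points per group for the replicates and a line at their mean. LIF in passage 4 leaders lies between 122 and 190.5 CPM, above every other library, and SOCS3 in the same group lies between 37.9 and 47.9 CPM, below every other library.

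CLCF1, which encodes a cytokine that signals through gp130 and the LIF receptor chain, was low at passage 1 and high at passage 4. Replicates 1 to 3 held 20.1, 13.2 and 15.8 CPM in the parental line, 5.86, 1.29 and 11 in laggers and 4.82, 11.8 and 4.24 in passage 1 leaders. Levels were 10.0, 9.05 and 7.82 CPM in passage 2 leaders, 21.6, 20.8 and 15.8 in passage 3 leaders and 22.6, 23.0 and 29.4 in passage 4 leaders. Every library of laggers and of leaders of passages 1 and 2 lay below the parental ones, and the passage 4 libraries lay above all others. CLCF1 rose from passage 1 to passage 4 leaders by 1.85 ± 0.52 SE (edgeR adjusted p = 0.0191) and by 0.67 ± 0.16 per passage (edgeR adjusted p = 0.00914). The first of these calls was lost without passage 1 leader replicate 1 or 3 or passage 4 leader replicate 3 (values 1.6 to 1.70, edgeR adjusted p = 0.0668 to 0.0829). Against the parental line passage 4 leaders stood at 0.61 ± 0.50 (edgeR adjusted p = 0.389). Passage 4 against passage 3, added after the values were seen, gave 0.37 ± 0.50 and was not called (edgeR adjusted p = 0.898).

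Against the parental line CLCF1 fell in laggers (-1.45 ± 0.51 SE, edgeR adjusted p = 0.0342). That call was lost without parental replicate 1 or 3 or lagger replicate 1 or 2 (values -0.97 to -1.52, edgeR adjusted p = 0.0552 to 0.100) and in a fit of these groups alone (edgeR adjusted p = 0.160), and the value was -2.14 without lagger replicate 3. Passage 1 leaders stood at -1.24 ± 0.51 (edgeR adjusted p = 0.0560), which passed without their replicate 2 (-1.79, edgeR adjusted p = 0.0147) and with DESeq2 (adjusted p = 0.0362). Leaders of passages 2 and 3 stood at -0.87 and 0.24 and were not called (edgeR adjusted p = 0.2045 and 0.767). CLCF1 lies on chromosome 11 from 67364168 to 67374177 on the minus strand and overlaps RAD9A on the other strand, which had up to 324 counts in a library.

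IL11, a cytokine that binds its own receptor chain before gp130, was low in all groups. Parental replicates 1 to 3 held 1.19, 0.664 and 0.259 CPM and laggers 1.23, 2.11 and 3.01 CPM. Leaders ranged over 1.22 to 2.12 CPM at passage 1, 1.29 to 1.57 at passage 2, 0.830 to 1.55 at passage 3 and 1.35 to 2.41 at passage 4. All libraries of laggers and of leader passages 1, 2 and 4 lay above the parental ones, and those of passage 3 overlapped them. IL11 rose in laggers by 1.56 ± 0.51 SE (edgeR adjusted p = 0.0235), on 7 to 48 counts in each parental library. This call was lost without parental replicate 2 or 3 or lagger replicate 3 (values 1.17 to 1.52, edgeR adjusted p = 0.0671 to 0.0802), with no filter on low counts (edgeR adjusted p = 0.0893), in a fit of these groups alone (edgeR adjusted p = 0.120) and without parental 3, lagger 3 and passage 3 leader 2, each the library of its group with most unaligned reads (0.89, edgeR adjusted p = 0.185). Leaders of passages 1, 2, 3 and 4 stood at 1.21 ± 0.51, 1.02 ± 0.51, 0.85 ± 0.51 and 1.29 ± 0.51, and none passed (edgeR adjusted p = 0.0614 to 0.241). At passages 1 and 4 IL11 passed with DESeq2 (adjusted p = 0.0364 and 0.0384) and without parental replicate 1 (1.75 and 1.83, edgeR adjusted p = 0.0221 and 0.0303). IL11 lies on chromosome 19 from 55364389 to 55370463 on the minus strand.

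IL6 was barely detected. It had 22 counts in the 18 libraries together, of which lagger replicates 1, 2 and 3 held 12, 0 and 9 and passage 4 leader replicate 2 held 1. In the parental line and in leaders of passages 1, 2 and 3 it had 0 counts. A floor of 3 counts over the group was used there, which is 0.0282 CPM for the parental line. The exact 95% Poisson interval for 0 counts ends higher, at 0.0347 CPM for the parental line and 0.0516 CPM for passage 1 leaders. The pooled lagger level was 0.373 CPM (exact 95% Poisson interval 0.231 to 0.570, counting error only). The lower end of that lagger interval was 8.19-fold the parental floor and 5.5-fold the floor of passage 1 leaders. Against the upper ends of the intervals for 0 counts the folds would be smaller. Without lagger replicate 1 these lower-end values were 4.15-fold and 2.79-fold, and without lagger replicate 3 they were 5.23-fold and 3.51-fold. They treat the lagger libraries as 1 pool, although the counts ranged from 0 to 12. The pooled level itself stood 13.2-fold and 8.88-fold above the parental and passage 1 floors. It stood 9.08-fold and 6.10-fold above them without lagger replicate 1, or 10.1-fold and 6.80-fold without lagger replicate 3. The fibroblast marker sum was 1274 and 2153 CPM in the lagger libraries with IL6 counts and 1292 CPM in the one without. IL6 lies on chromosome 7 from 22725884 to 22732002 on the plus strand.

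LIFR, which encodes the receptor chain that binds LIF, rose in leaders of passages 1 to 3. Its levels were 9.88, 16.3 and 14.1 CPM in parental replicates 1 to 3, 69.6, 19.1 and 20.4 in laggers and 86.5, 42.9 and 160.1 in passage 1 leaders. Passage 2 leaders held 185, 161 and 172 CPM, passage 3 leaders 91.2, 116 and 292 and passage 4 leaders 35.5, 22.0 and 36.5. The injected libraries all lay above the parental ones, and those of passage 4 all lay below those of leader passages 1 to 3. LIFR rose against the parental line by 2.84 ± 0.56 SE at passage 1, 3.68 ± 0.58 at passage 2 and 3.63 ± 0.58 at passage 3 (edgeR adjusted p = 0.000755, 0.000270 and 0.000341), a fold of 12.8 at passage 2. Without its highest library, replicate 3, passage 3 stood at 2.93. Passage 4 leaders were at 1.22 ± 0.53 (95% interval 0.09 to 2.35, edgeR adjusted p = 0.100), which passed in a fit of these groups alone (edgeR adjusted p = 0.0144) and with no filter on low counts (edgeR adjusted p = 0.0484).

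Most other calls on LIFR were lost when single libraries were left out. LIFR fell from passage 1 to passage 4 leaders (-1.62 ± 0.54 SE, edgeR adjusted p = 0.0428), a call lost without passage 1 leader replicate 1 or 3 or any 1 of the passage 4 libraries (values -1.04 to -1.77, edgeR adjusted p = 0.0704 to 0.220). The slope of -0.49 ± 0.17 per passage (edgeR adjusted p = 0.0484) was lost without any 1 of 10 of the 12 leader libraries, the exceptions being passage 1 replicate 2 and passage 3 replicate 3 (values -0.32 to -0.54, edgeR adjusted p = 0.0628 to 0.230). The fall was not even over the passages. In tests added after the values were seen, passages 2 and 3 stood at 0.84 ± 0.53 and 0.79 ± 0.53 against passage 1. Neither was called (edgeR adjusted p = 0.378 and 0.352), where 3.58% and 11% of all genes were called. Passage 4 against passage 3, also added, gave -2.41 ± 0.55 (edgeR adjusted p = 0.0402), where 1.39% of all genes were called. Laggers exceeded parental cells by 1.44 ± 0.54 (edgeR adjusted p = 0.0436), but by 0.53 without lagger replicate 1 (edgeR adjusted p = 0.421). Leaving out parental replicate 1, 2 or 3 also ended that call (edgeR adjusted p = 0.142, 0.0631 and 0.0887), as did the replicate block (1.34, edgeR adjusted p = 0.0555) and a fit of these groups alone (edgeR adjusted p = 0.0874). LIFR lies on chromosome 5 from 38474963 to 38608354 on the minus strand, and LIFR-AS1 on the other strand had at most 144 counts in a library.

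IL6R, which encodes the binding chain for IL6, rose in every injected group. Parental replicates 1 to 3 held 3.31, 2.07 and 3.81 CPM, laggers 26.5, 4.07 and 39.1 and passage 1 leaders 14.1, 8.31 and 15.8. Passage 2 leaders held 22.1, 16.2 and 19.9 CPM, passage 3 leaders 21.0, 21.2 and 16.2 and passage 4 leaders 11.4, 9.37 and 6.24. Each injected library lay above each parental one, with lagger replicate 2 the nearest. The rise was 2.92 ± 0.56 SE in laggers (edgeR adjusted p = 0.000725). At leader passages 1, 2, 3 and 4 it was 2.06 ± 0.54, 2.67 ± 0.55, 2.67 ± 0.55 and 1.56 ± 0.53 (edgeR adjusted p = 0.00551, 0.00199, 0.00242 and 0.0394). The call at passage 4 was lost without any 1 parental library or without passage 4 leader replicate 1 or 2 (values 1.33 to 1.74, edgeR adjusted p = 0.0678 to 0.129). Passage 4 leaders against passage 1 leaders stood at -0.50 ± 0.52 (95% interval -1.6 to 0.59, edgeR adjusted p = 0.532). IL6R lies on chromosome 1 from 154405193 to 154469450 on the plus strand.

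OSMR, which encodes the receptor chain for oncostatin M, rose in the middle passages. Its levels were 50.9, 56.3 and 52.0 CPM in parental replicates 1 to 3, 61.9, 40.4 and 37.3 in laggers and 73.8, 58.1 and 65.2 in passage 1 leaders. Passage 2 leaders held 154, 106 and 135 CPM, passage 3 leaders 118, 125 and 149 and passage 4 leaders 73.1, 60.6 and 74.7. The libraries of passages 2 and 3 lay above all others. OSMR rose against the parental line by 1.31 ± 0.21 SE at passage 2 and 1.30 ± 0.21 at passage 3, folds of 2.48 and 2.46 (edgeR adjusted p = 0.000250 and 0.000315). In laggers and at passages 1 and 4 the values were -0.19 ± 0.20, 0.31 ± 0.20 and 0.39 ± 0.20 (edgeR adjusted p = 0.482, 0.226 and 0.168). Tests between neighbouring passages were added after the values were seen. OSMR rose by 1.0 ± 0.20 from passage 1 to 2 (edgeR adjusted p = 0.0186; 3.58% of all genes called) and fell by 0.91 ± 0.20 from passage 3 to 4 (edgeR adjusted p = 0.0370). From passage 2 to 3, where 0.0124% of all genes were called, it differed by -0.01 ± 0.20. OSMR lies on chromosome 5 from 38845858 to 38945596 on the plus strand and overlaps RICTOR on the other strand, which had up to 1294 counts in a library.

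IL6ST, the gp130 gene shared by these receptors, passed in none of the 8 comparisons. Parental replicates 1 to 3 held 68.5, 106 and 43.2 CPM and laggers 149, 72.0 and 35.2. Leaders held 109.5 to 126 CPM at passage 1, 98.3 to 171 at passage 2, 60.3 to 131 at passage 3 and 99.5 to 104 at passage 4. The spread within the parental and lagger groups exceeded the distance between their means. Against the parental line the values ran from 0.24 ± 0.41 SE in laggers (95% interval -0.64 to 1.11) to 0.89 ± 0.42 in passage 2 leaders (95% interval 0.01 to 1.77, edgeR adjusted p = 0.117). The latter passed without parental replicate 2 (1.28, edgeR adjusted p = 0.0491). IL6ST lies on chromosome 5 from 55935095 to 55994993 on the minus strand.

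STAT3, the transcription factor that these receptors activate, passed in none of the 8 comparisons either. Parental replicates 1 to 3 held 134, 140.5 and 197 CPM, laggers 132, 159 and 163 and passage 1 leaders 134, 161 and 122. Passage 2 leaders held 228, 209 and 176 CPM, passage 3 leaders 162, 229.5 and 201 and passage 4 leaders 152, 162 and 186. Every group overlapped its neighbours in the order of group means. The largest value against the parental line was 0.38 ± 0.19 SE in passage 2 leaders (95% interval -0.02 to 0.78, edgeR adjusted p = 0.140). That value was 0.57 and passed without parental replicate 3, the parental library with the highest STAT3 level (edgeR adjusted p = 0.0497). It also passed without parental 3, lagger 3 and passage 3 leader 2 together (0.60, edgeR adjusted p = 0.0197), a fit that drops the same parental library. In the other 10 of 12 alternatives it was not called. In laggers and at leader passages 1, 3 and 4 the values were -0.06 ± 0.19, -0.18 ± 0.19, 0.33 ± 0.19 and 0.08 ± 0.19. These are RNA levels, and phosphorylation of the protein was not measured. STAT3 lies on chromosome 17 from 42313324 to 42388568 on the minus strand.

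SOCS3, the inhibitor gene that STAT3 induces, was high in laggers and leaders of passages 1 to 3 and low in passage 4 leaders. Parental replicates 1 to 3 held 71.0, 61.1 and 105 CPM, laggers 114, 280.3 and 358 and passage 1 leaders 177, 170.5 and 186. Passage 2 leaders held 195, 169 and 174 CPM, passage 3 leaders 117, 207 and 178 and passage 4 leaders 40.8, 47.9 and 37.9. The libraries of laggers and of leader passages 1 to 3 all lay above the parental ones, and those of passage 4 all lay below them. SOCS3 rose by 1.66 ± 0.32 SE in laggers, a fold of 3.17 (edgeR adjusted p = 0.000871). In leaders of passages 1, 2 and 3 it rose by 1.17 ± 0.32, 1.18 ± 0.32 and 1.08 ± 0.32 (edgeR adjusted p = 0.00725, 0.0114 and 0.0214). At passage 4 it fell below the parental line (-0.91 ± 0.32, edgeR adjusted p = 0.0438). The summed fibroblast markers were also above the parental range in laggers and leaders of passages 1 to 3 (549.8 to 2311 CPM), and their part in the levels of SOCS3 and LIFR was not tested.

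Among the leaders, SOCS3 fell from passage 1 to passage 4 by 2.08 ± 0.33 SE (edgeR adjusted p = 0.000566), and the slope was -0.63 ± 0.10 per passage (edgeR adjusted p = 0.000639). In the added tests, passage 4 against passage 3 gave -1.99 ± 0.33 (edgeR adjusted p = 0.00744), while passage 3 against passage 1 gave -0.09 ± 0.32 (95% interval -0.76 to 0.58, edgeR adjusted p = 0.891; 11% of all genes called). The call at passage 4 against the parental line was lost without parental replicate 1 or 3 or any 1 passage 4 library (values -0.65 to -1.01, edgeR adjusted p = 0.0561 to 0.200) and without parental 3, lagger 3 and passage 3 leader 2 together (-0.63, edgeR adjusted p = 0.114). The call at passage 3 was lost without parental replicate 1 or 2 or passage 3 leader replicate 2 or 3 (values 0.93 to 1.03, edgeR adjusted p = 0.0549 to 0.0806). The fall from passage 1 to 4 passed without any 1 of the 6 libraries. SOCS3 lies on chromosome 17 from 78356778 to 78360077 on the minus strand.

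**Figure D2:**
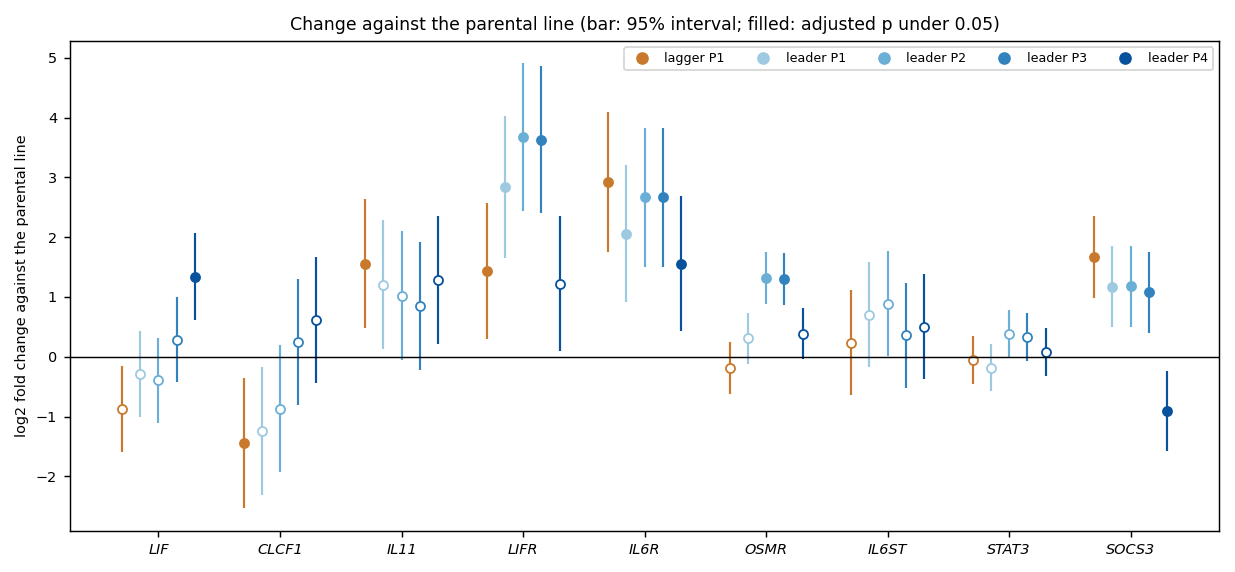
Log2 fold change of the 9 tested genes against the parental line in each injected group, with 95% intervals as bars and filled points for an adjusted p under 0.05; the 5 contrasts share the same 3 parental libraries. LIF goes from -0.87 in laggers to 1.34 in passage 4 leaders, and SOCS3 from 1.66 to -0.91.

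Counted over the family, 4 of the 9 tested members were higher and 1 was lower in laggers when set against parental cells, where 39.3% of all genes were called (21.5% higher, 17.8% lower). In passage 1 leaders 3 were higher and 0 lower, where 45.7% of all genes were called (23.2% and 22.4%). Passage 2 leaders had 4 higher and 0 lower, against 29.9% of all genes (15.1% and 14.8%), and passage 3 leaders 4 and 0, against 24.6% (13.8% and 10.8%). Passage 4 leaders had 2 higher and 1 lower, against 27.7% (14.8% and 12.9%). With so few members these counts are not read as particular to the family, and the contrasts share the parental libraries. Median log2 values of the members were 0.24 in laggers and 0.70, 1.02, 0.85 and 0.61 at passages 1 to 4, where medians of all genes lay between 0 and 0.09. The members were chosen with earlier results of these data known. Fewer members were called in laggers without parental replicate 3 (2), without parental replicate 1 or lagger replicate 1 (3 each) and in a fit of these groups alone (2). The count at passage 4 was 1 without parental replicate 3 or passage 4 leader replicate 1 or 2, and that at passage 1 was 5 without passage 1 leader replicate 2.

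From passage 1 to passage 4 leaders LIF and CLCF1 were higher and LIFR and SOCS3 lower, where 20% of all genes were called (10.8% higher, 9.17% lower). The slope over passages called the same 4 genes, where 21.1% of all genes were called (11.7% and 9.38%). Without passage 1 leader replicate 1 or 3 or passage 4 leader replicate 3, 2 members were called between passages 4 and 1. Between passage 1 leaders and laggers edgeR called 0 of 9 members, where 0.0618% of all genes were called (0.0185% and 0.0432%), and DESeq2 also called 0. At an unadjusted edgeR p under 0.05 there were 2 of the 9 members, beside 2338 of all 16187 genes. They were LIFR at 1.41 ± 0.53 SE and OSMR at 0.50 ± 0.20 (edgeR adjusted p = 0.276 and 0.299). The 95% intervals of this comparison were wide, at -0.14 to 1.30 for LIF and -1.16 to 0.17 for SOCS3.

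Levels of different genes were compared per kilobase of exon, using GENCODE 29 exon lengths. In the parental line SOCS3 was highest at 28.9 ± 8.50 CPM per kb (SD, n = 3), followed by STAT3 at 17.8 ± 3.90 and LIF at 14.7 ± 3.87. CLCF1 at 8.30 ± 1.77, IL6ST at 7.82 ± 3.41 and OSMR at 7.40 ± 0.403 CPM per kb differed by less than their spread. LIFR at 1.13 ± 0.277, IL6R at 0.474 ± 0.139 and IL11 at 0.264 ± 0.176 CPM per kb were the lowest of the 9. In passage 2 leaders LIFR reached 14.5 ± 1.01 CPM per kb, beside IL6ST at 14.5 ± 3.92. In passage 4 leaders LIF was the highest of the family at 37.3 ± 9.36 CPM per kb, above STAT3 at 18.9 ± 2.02 and SOCS3 at 15.4 ± 1.88.

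The ratio of ligand to receptor RNA moved with the passages. LIF over LIFR, both per kilobase, was 16.9, 8.15 and 15.8 in parental replicates 1 to 3 and 1.15, 4.46 and 5.95 in laggers. It was 1.27, 5.71 and 0.464 in passage 1 leaders, 0.640, 0.864 and 0.822 in passage 2 leaders and 2.07, 1.86 and 0.804 in passage 3 leaders, and 16, 16.5 and 10.8 in passage 4 leaders. Every library of laggers and of leader passages 1 to 3 lay below every parental and passage 4 library, and the ranges of the parental line and passage 4 overlapped. The ratio was chosen after the values of both genes were seen and was not tested.

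**Figure D3:**
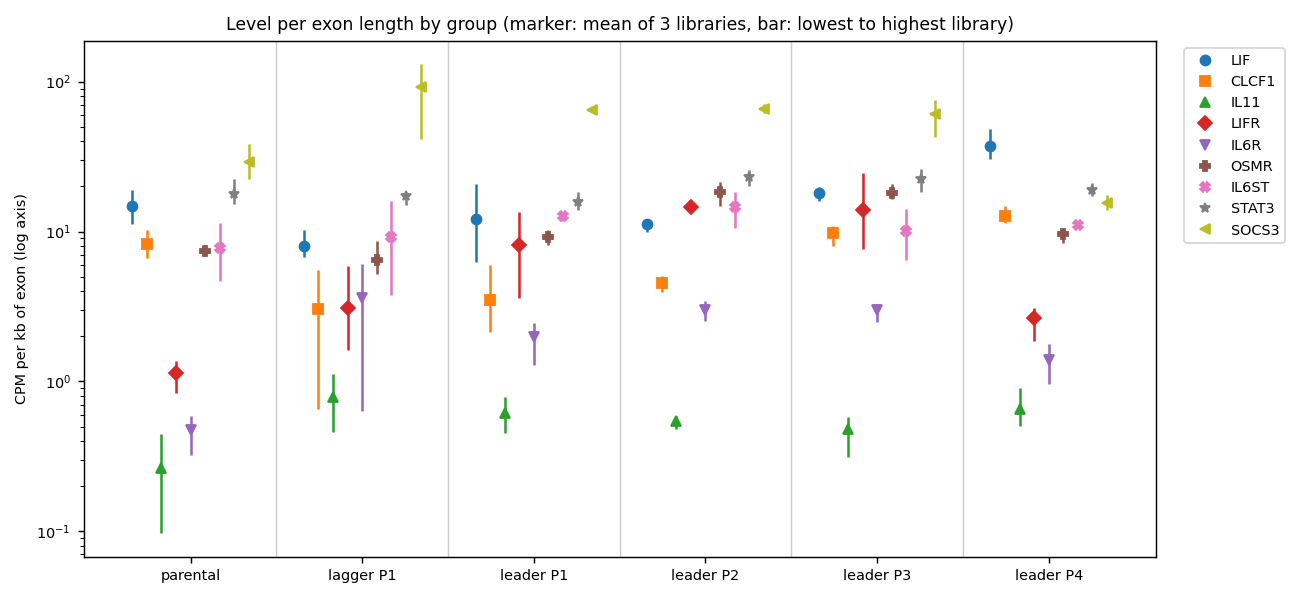
Level of the 9 tested genes in CPM per kilobase of exon (log axis) by group, with the mean of 3 libraries as marker and the range of the libraries as bar. LIFR stands at 1.13 in the parental line, 14.5 in passage 2 leaders and 2.64 in passage 4 leaders, where LIF is the highest gene at 37.3.

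Of 7 other ligand genes of the pathway, 3 were expressed enough to test. CTF1, which encodes cardiotrophin 1, fell in passage 1 leaders from 61.3 ± 18.9 CPM (SD, n = 3, as below) to 28.0 ± 7.11 (-1.13 ± 0.32 SE, edgeR adjusted p = 0.00904; edgeR adjusted p = 0.0524 without parental replicate 3). EBI3, a subunit of IL27, fell there from 2.62 ± 2.42 to 0.226 ± 0.118 CPM (-3.47 ± 0.80, edgeR adjusted p = 0.00236; -2.50 without parental replicate 3). From passage 1 to passage 4 leaders it rose by 3.47 ± 0.80 (edgeR adjusted p = 0.00702), to 2.61 ± 0.821 CPM. Of 4 other receptor genes 3 were tested. CNTFR and IL11RA passed in none of the 8 comparisons, and IL27RA, a partner of gp130, fell in passage 1 leaders from 159.9 ± 35.2 to 90.2 ± 20.8 CPM (-0.83 ± 0.24, edgeR adjusted p = 0.0103). From passage 1 to passage 4 leaders IL27RA rose by 0.93 ± 0.24 (edgeR adjusted p = 0.0134), a call lost without passage 1 leader replicate 1 or 3 or passage 4 leader replicate 3 (values 0.79 to 0.84, edgeR adjusted p = 0.0546 to 0.0622).

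Of 9 kinases and relays, 5 fell and 1 rose in laggers, and the same counts held for passage 1 leaders, where 17.8% and 22.4% of all genes were called lower. Their median log2 values were -0.77 and -0.58, against 0.09 and 0.07 over all genes. This list too was set with earlier results of these data known, and the medians only describe it. PTPN11, the phosphatase SHP2 that binds gp130, fell in laggers from 171 ± 21.8 to 72.4 ± 14.0 CPM (-1.24 ± 0.17 SE, edgeR adjusted p = 4.64e-05). STAT5B, a relative of STAT3, fell from 112 ± 7.46 to 46.9 ± 18.6 CPM (-1.25 ± 0.24, edgeR adjusted p = 0.000734). TYK2, a JAK kinase, fell in passage 1 leaders from 163 ± 37.5 to 75.4 ± 17.3 CPM (-1.11 ± 0.26, edgeR adjusted p = 0.00251). It rose from passage 1 to passage 4 leaders by 0.90 ± 0.26 (edgeR adjusted p = 0.0226), which was lost without the same libraries as for IL27RA (values 0.63 to 0.87, edgeR adjusted p = 0.0676 to 0.134). The gene that rose in laggers was GAB1, a docking protein for SHP2, with 0.0663 ± 0.115 CPM in the parental line and 2.40 ± 1.1 in laggers (4.97 ± 0.83, edgeR adjusted p = 0.000270). Of the parental libraries only replicate 1 held counts of GAB1, so the size of this change depends on the prior count of the fit. Without that library the value was 8.86. In passage 4 leaders 1 of the 9 was higher and 2 were lower, against 27.7% of all genes called in either direction.

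Of 10 tested inhibitors other than SOCS3, 1 rose and 2 fell in laggers, and 1 rose and 2 fell in passage 4 leaders, where 39.3% and 27.7% of all genes were called in either direction. These shares are near or above that of the inhibitors, and nothing particular to the list is read from its counts. The gene that rose was SOCS1, a close relative of SOCS3, at 1.42 ± 0.327 CPM in the parental line, 20.2 ± 12.5 in laggers and 13.7 ± 1.79 in passage 4 leaders (3.82 ± 0.43 SE and 3.27 ± 0.42, edgeR adjusted p = 7.79e-06 and 4.64e-05). The lagger value was 3.14 without parental 3, lagger 3 and passage 3 leader 2. Between passage 4 and passage 1 leaders SOCS1 was at -0.21 ± 0.38 (edgeR adjusted p = 0.734) and SOCS3 at -2.08 ± 0.33, and the difference between the genes was not tested. PTPN1, a phosphatase that acts on JAK kinases, fell in passage 1 leaders from 86.8 ± 7.73 to 31.6 ± 5.23 CPM (-1.46 ± 0.20, edgeR adjusted p = 4.53e-05). SOCS6 fell in laggers by 1.68 ± 0.38 on the log2 scale (edgeR adjusted p = 0.00266). From passage 1 to passage 4 leaders 2 of the 10 inhibitors rose and 0 fell, where 10.8% of all genes were called higher. They were PIAS3 (1.22, edgeR adjusted p = 0.00765) and PTPN1 (0.70, edgeR adjusted p = 0.0224). The PTPN1 call was lost in 5 of 12 alternatives and that of PIAS3 in 1.

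Of 29 genes known as STAT3 targets, 21 were tested. In laggers 10 rose and 5 fell, in passage 1 leaders 10 rose and 6 fell, and in passage 4 leaders 10 rose and 5 fell, where 39.3%, 45.7% and 27.7% of all genes were called. The targets had median log2 values of 0.86, 0.91 and 1.08, against 0.09, 0.07 and 0.03 over all genes. The list was set with earlier results of these data known, so counts and medians describe it and test nothing. SERPINA3, a secreted protease inhibitor of the acute phase, had 0.457 ± 0.179 CPM in the parental line, 24.5 ± 15.8 in laggers and 1465 ± 715 in passage 4 leaders (5.74 ± 0.94 SE and 11.64 ± 1.15, edgeR adjusted p = 0.000240 and 4.64e-06). From passage 1 to passage 4 leaders it rose by 6.40 ± 0.90 (edgeR adjusted p = 0.000234; 7.89 without passage 1 leader replicate 1). VEGFA, the angiogenic growth factor, rose in passage 4 leaders from 62.0 ± 13.0 to 388 ± 188 CPM (2.64 ± 0.33, edgeR adjusted p = 3.36e-05). NFKBIZ, a regulator of NF-kB target genes, rose in laggers from 4.74 ± 0.974 to 55.2 ± 9.27 CPM (3.54 ± 0.33, edgeR adjusted p = 1.39e-06). FOSL2, a subunit of AP-1, fell in passage 4 leaders from 239 ± 41.6 to 77.0 ± 14.3 CPM (-1.63 ± 0.23, edgeR adjusted p = 9.95e-05). Many of these genes also answer to other regulators.

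**Figure D4:**
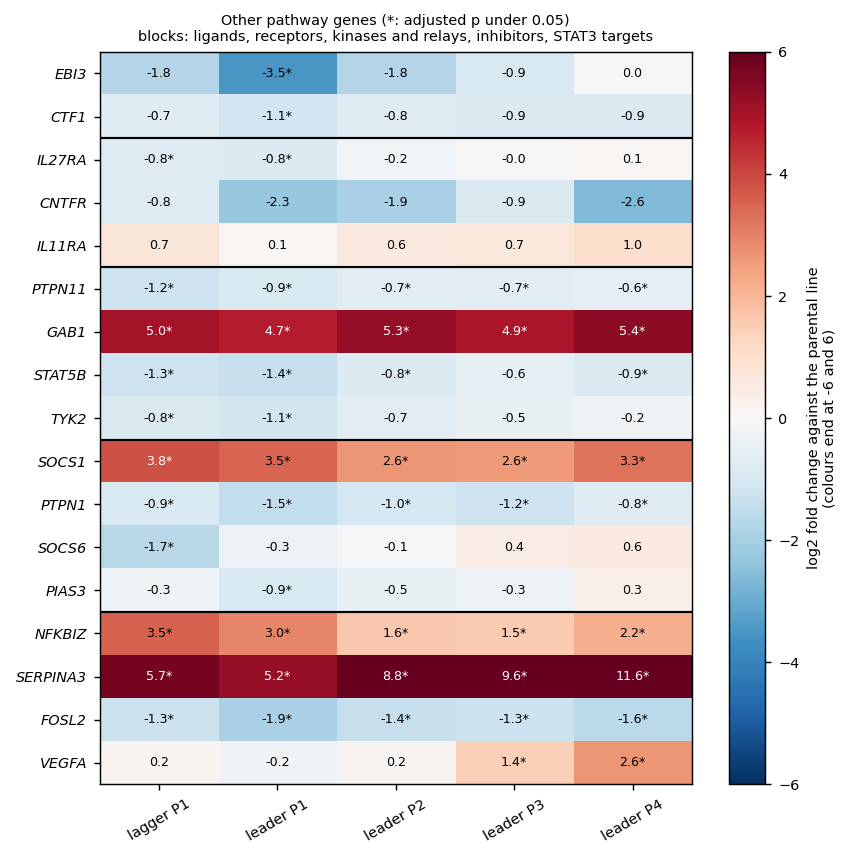
Log2 fold change against the parental line of 17 other pathway genes (rows, in 5 blocks by role) in the 5 injected groups (columns), with an asterisk for an adjusted p under 0.05. GAB1, SOCS1, NFKBIZ and SERPINA3 carry an asterisk and a positive value in all 5 columns, and SERPINA3 reaches 11.64 in passage 4 leaders.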

How the data were processed

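Complementary DNA of 18 libraries was made with a low-input kit that does not preserve strand, and reads were paired, 50 bases long (per the labels' protocols). The deposited table gives the authors' raw counts per gene. The submitters' processing notes list cutadapt 1.6, STAR 2.5.0a, HTSeq 0.5.3 and DESeq 1.22.1; the build and annotation behind the counts were "not given in the sources used here". Entries naming no gene (5 per library, 27.55% to 60.6% of the column) were removed, which left 15113462 to 39373248 counts.

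All libraries entered 1 edgeR 4.0.16 quasi-likelihood fit (R 4.3.3) with a mean per group and 12 residual degrees of freedom. The edgeR filter kept 16187 genes, over which p-values of each of 8 comparisons were adjusted (Benjamini-Hochberg). SE is the log2 fold change over the square root of F. The fit was also run on simulated counts drawn from its own means and dispersions, with changes placed only in genes above a set level. That run cannot speak to genes of low level or to replicates that are not independent. Exon lengths and positions came from GENCODE 29. The members and lists were chosen with earlier results of these data known. All members were named, and from each other list up to 4 tested genes of smallest adjusted p. Of the genes so chosen, 1 is not reported here. Alternatives were DESeq2 1.42.0, RLE scaling, no filter, the compared groups alone, a replicate block and each library left out. Added after seeing the data were tests between leader passages and a fit without parental 3, lagger 3 and passage 3 leader 2, each with the most unaligned reads of its group. Replicates were distinct libraries: their counts differed beyond sampling noise in every pair (chi-square over degrees of freedom at least 21.2).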

Additional observations from a re-analysis of the deposited data

Results flagged for a closer look

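For 4 genes the change against the parental line differed between leaders of passages 1 and 4, by the edgeR test of that difference itself, in which the parental libraries cancel. LIF differed by 1.63 and CLCF1 by 1.85 on the log2 scale, with all 3 passage 4 libraries above all 3 of passage 1. LIFR differed by -1.62 and SOCS3 by -2.08, with all 3 passage 4 libraries below. The calls on LIF and SOCS3 held under all 12 alternatives, whereas that on LIFR was lost in 5 and that on CLCF1 in 3. Of all genes, 20% were called in that comparison.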

How the results depend on the processing

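Of 27 called member values, 18 held under every alternative, 9 lost the call under at least 1 and 0 reversed. Of 45 that were not called, 9 passed under at least 1 and 11 changed sign. Passage 1 leaders against laggers gave 10 called genes, and 257 with no filter, 3 with the replicate block, 0 in an edgeR fit of these groups alone (1197 at an unadjusted p under 0.05), 365 with DESeq2, 38 without parental 3, lagger 3 and passage 3 leader 2 together and 0 to 52 without 1 library. Laggers against the parental line gave 6363, and 3355 in a fit of these groups alone. Without 1 library the number of genes was 3167 to 4414 at passage 2 (all libraries 4846), 2491 to 3761 at passage 3 (3976), 1512 to 2821 for passage 4 against 1 (3237, and 4925 without those 3 libraries) and 1740 to 3255 for the slope (3412). Members called were 2 in laggers in a fit of these groups alone and 2 to 5 without 1 library, 5 in passage 1 leaders with DESeq2 and 3 to 5 without 1 library, and without 1 library 1 to 2 at passage 4 and 2 to 4 for passage 4 against 1. Sign changes concerned uncalled values. Without 1 library the ranges were -0.86 to 0.0195 for LIF at passage 1, -0.44 to 0.66 for IL6ST and -0.47 to 9.64e-05 for OSMR in laggers, and -0.31 to 0.94 for CLCF1 between passage 1 leaders and laggers. For passage 4 against 1 they were -0.0286 to 0.18 (OSMR) and -0.21 to 0.30 (IL11), and for the slope -0.0121 to 0.0511 (OSMR) and -0.0796 to 0.0739 (IL11). STAT3 ranged over -0.17 to 0.13 in laggers, -0.32 to 0.00647 at passage 1 and -0.0529 to 0.28 at passage 4. The IL11 slope was -0.0043 with RLE scaling, -0.0115 with the leaders alone, -0.0032 with DESeq2 and -0.0209 without those 3 libraries, where STAT3 was 0.14 in laggers and 0.0721 in passage 1 leaders. The cause was not tested. Replicate numbers did not pair the libraries: deviations of same-numbered libraries had a mean correlation of -0.0142 (-0.408 to 0.401), and 5 of 18 libraries correlated best with their own number. The replicate block ended the LIFR call in laggers (1.34) and no other call on a member. Depth limits IL6, with 22 counts in all, and IL11, with 7 in 1 library.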

Other observations

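The protein-coding genes whose profile over the 18 libraries was nearest to that of LIF were PPAP2C, a lipid phosphatase gene, FURIN, a proprotein convertase, and FXYD5, a regulator of the sodium pump. Their centred log2 CPM differed from that of LIF by a root mean square of 0.35, 0.36 and 0.37, where the median over 13034 genes was 0.94. FURIN averaged 74.8 ± 23.0 CPM in the parental line, 53.0 ± 16.6 in passage 1 leaders and 164 ± 60.3 in passage 4 leaders (SD, n = 3). PPAP2C averaged 66.4 ± 9.45, 71.4 ± 16.6 and 159.6 ± 14.7 CPM in these groups.

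Nearest to SOCS3 were JUP, which encodes the junction protein plakoglobin, TLE2, a corepressor, and SNAI1, a regulator of mesenchymal transition, at 0.34, 0.44 and 0.48 against a median of 1.12. SNAI1 averaged 13.3 ± 2.84 CPM in the parental line, 38.6 ± 12.7 in laggers and 6.25 ± 1.73 in passage 4 leaders, and TLE2 127 ± 40.8, 810.5 ± 324 and 103 ± 35.7 CPM. These are descriptions of likeness, with no test.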
